A study of Mus musculus with 6 samples.

Results

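The chymotrypsins, elastases and carboxypeptidases of the exocrine pancreas were represented by 9 genes of the 44713 genes in the count table of the islet RNA. They were chosen by name: the chymotrypsin family genes Ctrb1, Ctrc and Ctrl, the pancreatic elastase genes Cela1, Cela2a, Cela3a and Cela3b, and the carboxypeptidase genes Cpa1 and Cpb1. Of these, 8 were found under their own symbols, and Cela3a was found under its older symbol Gm13011. All 9 had enough counts to enter the test of db/db against db/m mice.

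Whole-transcriptome RNA-seq was done on rRNA-depleted total islet RNA, with 3 libraries from db/db and 3 from db/m mice, 1 mouse per library. All mice were male, were 10 weeks old and ate normal chow, and the islets were freed by collagenase digestion and collected on a density gradient. The db/db mice carry the db mutation of the leptin receptor on both chromosomes, which makes them obese and hyperglycaemic, and the db/m mice are their non-diabetic littermates. The methods of the study place the mutation on the BKS background, whereas the sample labels give C57BL/6, name the db/db genotype Lepr-/- and call the db/m mice wild type. The mutation is carried by every cell of the mouse, and the labels give the tissue as pancreas and the cells as islet cells. Counts of Lepr, the mutated gene, were 4, 10 and 68 in db/db and 37, 25 and 8 in db/m mice, and a gene-level count does not read the db mutation.

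These enzymes are made by acinar cells, which form the exocrine part of the pancreas, and not by the endocrine cells of the islet. They are stored in zymogen granules as inactive precursors and become active in the duodenum after trypsin cuts them. Chymotrypsins and elastases are serine endopeptidases that cut inside a protein chain, and carboxypeptidases are zinc enzymes that remove the last residue of a chain. Their genes are switched on by the transcription factor complex PTF1, which recognizes an E-box and a TC-box, and by the nuclear receptor NR5A2 and GATA factors.

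Upstream sequences of 3 genes are shown, the one of Ctrb1 because it has the highest level of the group, and those of Cela3a and Cela3b because the pair is nearly identical in sequence and far apart in level. Each covers the 250 bases before the annotated start (RefSeq, build GRCm38.p6), written from 5′ to 3′ on the strand of the gene. Capitals mark 4 motifs on either strand. The E-boxes searched were CACCTG and, apart from it, CAGCTG. The TC-box searched was TTTCCCA. For GATA factors the motif searched was GATAAG. No 2 marked motifs overlap in any of the 3 sequences.
Ctrb1 (chr8:111691011-111691260, minus strand): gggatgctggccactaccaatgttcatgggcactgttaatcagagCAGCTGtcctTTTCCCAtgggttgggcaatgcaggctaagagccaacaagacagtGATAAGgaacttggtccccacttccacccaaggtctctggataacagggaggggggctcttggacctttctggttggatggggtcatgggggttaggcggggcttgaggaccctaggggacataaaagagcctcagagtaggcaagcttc
Cela3a (chr4:137409792-137410041, minus strand): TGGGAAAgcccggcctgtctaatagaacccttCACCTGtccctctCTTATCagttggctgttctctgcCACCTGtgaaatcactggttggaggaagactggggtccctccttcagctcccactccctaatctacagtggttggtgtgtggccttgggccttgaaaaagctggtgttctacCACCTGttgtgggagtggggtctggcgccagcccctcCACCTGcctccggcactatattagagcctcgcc
Cela3b (chr4:137430521-137430770, minus strand): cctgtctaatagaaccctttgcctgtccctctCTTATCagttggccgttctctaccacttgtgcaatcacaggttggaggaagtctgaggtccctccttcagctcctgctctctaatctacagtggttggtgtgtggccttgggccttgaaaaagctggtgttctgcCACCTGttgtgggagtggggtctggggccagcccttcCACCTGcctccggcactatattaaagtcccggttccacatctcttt

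A 250-base upstream sequence was found for 8 of the 9 genes, all but Ctrc. CACCTG was present on either strand in 6 of the 8 (Ctrl, Cela1, Cela2a, Cela3a, Cela3b and Cpb1), compared with 17.2% of 32851 promoters of the same length. CAGCTG was present in Ctrb1, Ctrl and Cela1, compared with 13.0% of promoters. TTTCCCA was present in Ctrb1, Cela2a, Cela3a and Cpa1, compared with 6.82% of promoters. In Cela3a this match lies at the very start of the window. The window of Cela3b begins past the matching place in the alignment, so its counterpart there was not searched. GATAAG was present in Ctrb1, Cela1, Cela2a, Cela3a and Cela3b, compared with 6.55% of promoters. AAGGTCA, a motif of the nuclear receptor kind, was present only in Cela1 among the 8, compared with 4.08% of promoters. The upstream sequences of Cela3a and Cela3b were identical at 92.4% of 237 aligned bases, whereas all other pairs among the 8 lay between 54.8% and 70.6%. These matches are letters in a window and were not measured as sites.

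The genes lie on 5 chromosomes of GRCm38.p6. Ctrb1 (chr8:111686510-111691010) and Ctrl (chr8:105931994-105933862) are on chromosome 8 with 7 exons each. On chromosome 4, Cela3a (chr4:137401554-137409791) and Cela3b (chr4:137421008-137430520) are neighbours, and Cela2a (chr4:141814954-141826005) and Ctrc (chr4:141838239-141846287) form a second pair, each of the 4 with 8 exons. Cela1 is on chromosome 15 (chr15:100674422-100687920, 8 exons), Cpb1 on chromosome 3 (chr3:20249479-20275733, 11 exons) and Cpa1 on chromosome 6 (chr6:30639218-30645361, 10 exons). Cpa1 is the only gene of the group on the plus strand. RefSeq lists Ctrc as a transcribed pseudogene, whereas the deposited table lists it as protein-coding.

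Sequence shared between transcripts limits what counts can separate. The transcripts of Cela3a and Cela3b were identical at 94.4% of 896 aligned bases, and 34.2% of the 50-base stretches of Cela3a also occurred in Cela3b. For Cela2a, 30.8% of the 50-base stretches occurred in transcripts that GENCODE assigns to Ctrc, on the same strand, or to Casp9, on the other strand. The RefSeq transcripts of Ctrb1, Ctrc, Ctrl, Cela1, Cpa1 and Cpb1 shared no 50-base stretch with another gene. Ctrb1 and Ctrl were identical at 66.4% of their aligned bases and Cpa1 and Cpb1 at 65.9%. Counts of Cela3a, Cela3b and Cela2a are therefore uncertain to the extent that reads were split among copies. The same holds for Ctrc if its reads were counted on the GENCODE transcripts that share stretches with Cela2a. The annotation behind the counts, and whether the counting used strand, are not given in the sources used here.

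Library totals lay between 15641797 and 20614531 counts, with medians of 16854115 in db/db and 16150074 in db/m mice. A pair of libraries stood apart: db/db replicate 1, with a TMM factor (the scaling that edgeR sets so that most genes match between libraries) of 0.605, and db/m replicate 1, with 1.75, against 0.919 to 1.06 in the other 4. All 10 β-cell markers had a log2 fold change below 0 in db/db mice, and edgeR called 4 of them lower, compared with 0.486% of all genes tested. DESeq2 called 8 of the 10 lower, compared with 4.39% of genes. Their summed share was 0.150% to 0.641% of counts in db/db and 0.772% to 4.39% in db/m mice, highest in db/m replicate 1, and of the 10 only Mafa was at 0 in any library. Of the acinar secretory genes, the 9 proteases and 33 others together held 75.7% to 83% of counts in db/db and 56.8% to 73.5% in db/m mice. Markers of the labelled islet cells were thus present at a small share beside a much larger share of acinar genes, and the part of acinar tissue in the results was not tested. By the study's supplement, insulin immunofluorescence was used to check that the isolated islets were free of acinar cells. The supplement reports that most of the isolated cells stained positive, and those images were not analysed here. In bulk RNA, fewer cells of a type and less RNA per cell cannot be told apart.

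The 9 protease genes together took a larger part of all counts in each db/db library than in any db/m library. Their share was 44.5%, 42.3% and 40.6% in db/db replicates 1 to 3 and 32.6%, 38.7% and 38.8% in db/m replicates 1 to 3. The groups did not overlap, and db/m replicate 1 lay well below the other db/m libraries. The means were 42.5% ± 1.95 (SD, n = 3) and 36.7% ± 3.51 (SD, n = 3), a difference of 5.76 percentage points (exact permutation test, two-sided, p = 0.1). This is the smallest p that 3 mice against 3 can give, so the design cannot reach 0.05. Without db/m replicate 1 the difference was 3.73 percentage points (exact permutation p = 0.2), and without db/db replicate 1 it was 4.74 (exact permutation p = 0.3). The share of the β-cell markers moved the other way in the same libraries, and its part in this difference was not tested.

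The chymotrypsins accounted for most of this difference in share, chiefly through Ctrb1. Their summed share was 18.3%, 19.7% and 16.1% in db/db and 13.4%, 14.7% and 14% in db/m mice, with no overlap (18.0% ± 1.79 against 14% ± 0.626, SD, n = 3 each, exact permutation p = 0.1). Within this class, the means differed by 3.38 percentage points for Ctrb1, 0.54 for Ctrl and 0.08 for Ctrc. The 4 elastases took 13.5%, 10.9% and 12.4% in db/db and 10.7%, 11.8% and 12.2% in db/m mice. The carboxypeptidases took 12.8%, 11.6% and 12.1% in db/db and 8.51%, 12.1% and 12.7% in db/m mice. For these 2 classes the groups overlapped (exact permutation p = 0.4 and p = 0.7). Without db/m replicate 1, the difference moved from 1.05 to -0.25 percentage points for carboxypeptidases and from 0.71 to 0.27 for elastases.

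**Figure D1:**
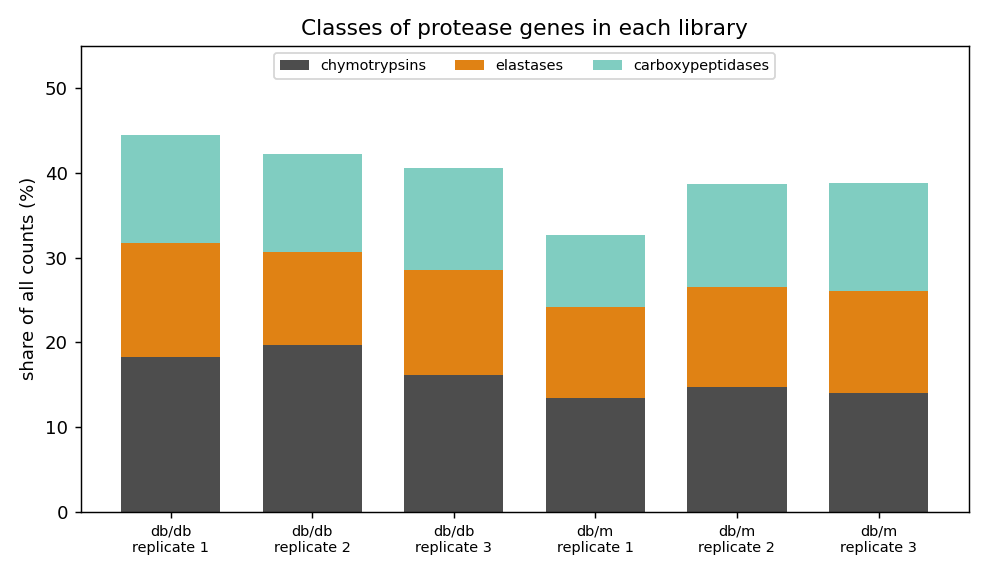
Stacked bars give the share of all counts (%, y axis) of chymotrypsins, elastases and carboxypeptidases in each of the 6 libraries (x axis). The full bars reach 40.6% to 44.5% in db/db and 32.6% to 38.8% in db/m mice, and the chymotrypsin segment is 16.1% to 19.7% in db/db and 13.4% to 14.7% in db/m mice.

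Ctrb1 encodes chymotrypsinogen B, the main chymotrypsin precursor of the mouse pancreas. It had the highest count of any gene in all 6 libraries. Its share was 14.5%, 16.3% and 12.7% of all counts in db/db and 10.8%, 11.6% and 11.0% in db/m mice. Every db/db library was above every db/m library, with means of 14.5% ± 1.79 and 11.1% ± 0.451 (SD, n = 3 each). The exact permutation test gave p = 0.1, or 0.45 after adjustment over the 9 genes.

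Ctrl encodes a chymotrypsin-like protease. Its share was 2.67%, 2.40% and 2.44% in db/db and 1.80%, 2.08% and 2.0% in db/m mice. The groups did not overlap here either, and the means were 2.5% ± 0.149 and 1.96% ± 0.145 (SD, n = 3 each, exact permutation p = 0.1). Ctrc is named for chymotrypsin C, which in other mammals degrades or activates trypsinogen. RefSeq lists the mouse gene as a transcribed pseudogene. Its share was 1.14%, 0.979% and 0.954% in db/db and 0.857%, 0.967% and 0.997% in db/m mice. The groups overlapped for Ctrc, and only db/db replicate 1 was above all db/m libraries (exact permutation p = 0.5).

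Cela2a, a gene of the elastase 2 family, took the largest share among the elastases. It held 5.98%, 5.0% and 5.40% of counts in db/db and 4.86%, 5.40% and 5.88% in db/m mice, so that the groups covered the same range (exact permutation p = 0.7). Cela1, the gene of elastase 1, held 4.29%, 3.31% and 4.10% in db/db and 3.07%, 3.54% and 3.74% in db/m mice. For Cela1, 2 of the 3 db/db libraries were above all db/m libraries (exact permutation p = 0.3).

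Cela3b belongs to the elastase 3 family, which in humans has little activity on elastin. It held 3.19%, 2.63% and 2.90% in db/db and 2.76%, 2.90% and 2.53% in db/m mice, with overlapping groups (exact permutation p = 0.4). Its near-identical neighbour Cela3a had 382, 434 and 574 counts in db/db and 508, 256 and 455 in db/m mice. These counts compare with 443130 to 657208 counts of Cela3b in db/db and 431477 to 481555 in db/m mice. Cela3a thus had 0.0546% to 0.122% of the count of Cela3b, a range of 2.23-fold over the 6 libraries. The values were 0.0581%, 0.0979% and 0.122% in db/db and 0.118%, 0.0546% and 0.0945% in db/m mice, with no separation (exact permutation p = 0.7). With 34.2% of its 50-base stretches in common with Cela3b, the part of the Cela3a count that comes from Cela3b reads was not tested.

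Cpa1 encodes carboxypeptidase A1, which removes aromatic and branched residues. It held 6.87%, 6.60% and 6.54% of counts in db/db and 5.0%, 6.85% and 7.03% in db/m mice. Apart from the low db/m replicate 1, the libraries of both groups were close (exact permutation p = 0.9). Cpb1 encodes carboxypeptidase B1, which removes lysine and arginine. It held 5.91%, 5.02% and 5.55% in db/db and 3.51%, 5.28% and 5.66% in db/m mice, again lowest in db/m replicate 1 (exact permutation p = 0.6).

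**Figure D2:**
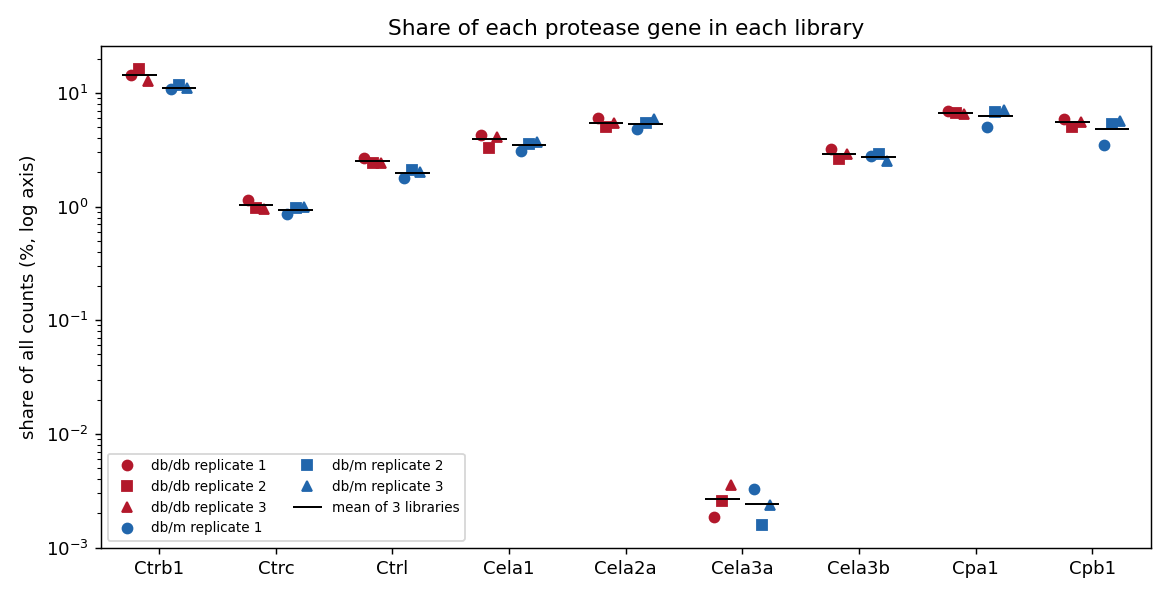
Points give the share of all counts (%, log y axis) of each of the 9 genes (x axis) in each library, red for db/db and blue for db/m mice, with a symbol per replicate and a black line at the mean of 3. Red and blue points separate for Ctrb1 (12.7% to 16.3% against 10.8% to 11.6%) and Ctrl (2.40% to 2.67% against 1.80% to 2.08%), and Cela3a lies far below the rest at 0.00159% to 0.00354%.

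By share of all counts, 2 of the 9 genes had db/db libraries that all lay above the db/m libraries, compared with 1.08% of the 12760 genes tested. For 25.5% of genes the db/db libraries all lay below. Shares are parts of the same total, so a larger share of abundant genes lowers those of the others. TMM normalization raises the values of db/db replicate 1 and lowers those of db/m replicate 1. After it, 3 of the 9 genes (Ctrb1, Ctrl and Cela3a) had all db/db libraries above, compared with 8.53% of genes. The intervals that counting alone gives to these shares (95%, Clopper-Pearson) were at most 0.0176 percentage points on either side for single genes. The spread between mice was much wider than counting error for the 8 abundant genes.

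In the edgeR quasi-likelihood test, the adjusted p passed 0.05 for 0 of the 9 genes, compared with 0.619% of all genes tested in either direction and 0.133% as higher in db/db mice. At an unadjusted p under 0.05, 1 gene (Cela3a) passed, compared with 14.9% of genes in either direction and 5.04% as higher in db/db mice. DESeq2 called 0 of the 9 after adjustment and 5 at an unadjusted p under 0.05 (Ctrb1, Ctrl, Cela1, Cela3a and Cela3b). For DESeq2 the shares over all genes were 16.4% at an unadjusted p under 0.05 in either direction, 6.17% at such a p and higher, and 1.16% called as higher after adjustment. All 9 log2 fold changes were above 0, compared with 49.9% of genes, and their median was 0.71, compared with 0.00 over all genes. These 9 values are not independent, since they rest on the same 6 libraries and the same scaling.

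Ctrb1 had 239231, 164466 and 138872 TMM-normalized CPM (counts relative to library size) in db/db and 61892, 109465 and 112979 in db/m mice. The libraries did not overlap, but db/db replicate 1 and db/m replicate 1 were the extremes of the comparison. The log2 fold change was 0.93 ± 0.68 (SE, edgeR adjusted p = 0.550). Ctrl had 44237, 24157 and 26592 CPM in db/db and 10328, 19553 and 20636 in db/m mice, and a log2 fold change of 0.91 ± 0.55 (SE, edgeR adjusted p = 0.472). Ctrc had a log2 fold change of 0.69 ± 0.50 (SE, edgeR adjusted p = 0.552).

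Among the elastases, Cela3a had 30.7, 25.9 and 38.6 CPM in db/db and 18.6, 14.9 and 24.6 in db/m mice. The groups were close but did not overlap, and the log2 fold change was 0.71 ± 0.27 (SE), with an unadjusted p of 0.0255 and an edgeR adjusted p of 0.262. By share of all counts, the groups of Cela3a overlapped (exact permutation p = 0.7). With library size alone, its log2 fold change was 0.14 ± 0.38 (SE). Cela1, Cela2a and Cela3b had log2 fold changes of 0.74 ± 0.60, 0.58 ± 0.62 and 0.68 ± 0.55 (SE). Cpa1 and Cpb1 had log2 fold changes of 0.60 ± 0.64 and 0.71 ± 0.65 (SE). None of these 5 passed (edgeR adjusted p from 0.593 to 0.693), and their SE was close to the value itself. Without db/db replicate 1, the log2 fold change was 0.32 for Cpa1, 0.38 for Cpb1, 0.33 for Ctrc, 0.39 for Cela1, 0.24 for Cela2a, 0.34 for Cela3b and 0.60 for Ctrl. Without db/m replicate 1, it was 0.32 for Cpa1, 0.39 for Cpb1, 0.45 for Ctrc and 0.34 for Cela2a. These were the moves of over 1.5 times when 1 library was left out, and Ctrb1 and Cela3a had none.

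The fold changes depended on how the libraries were scaled. With library size alone, the log2 fold changes of the 9 genes ran from 0.02 (Cela2a) to 0.38 (Ctrb1), while the median over all genes was -0.59. With the mean level of the other 33 acinar secretory genes as a covariate, the log2 fold change was 0.05 for Ctrb1, 0.51 for Cela3a and below 0 for the other 7 genes, from -0.19 (Ctrl) to -0.71 (Cpb1). In these fits edgeR called 0 of the 9 genes at an adjusted p under 0.05. The covariate weights each gene alike and includes Gm10334, a trypsinogen gene with a log2 fold change of 7.57. Averaged in this way, the 9 genes differed from the 33 by -0.61 between groups (exact permutation p = 0.1). In summed counts the difference was -0.04 (exact permutation p = 0.7). The part of the covariate's own group difference in the changes of sign was not tested.

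**Figure D3:**
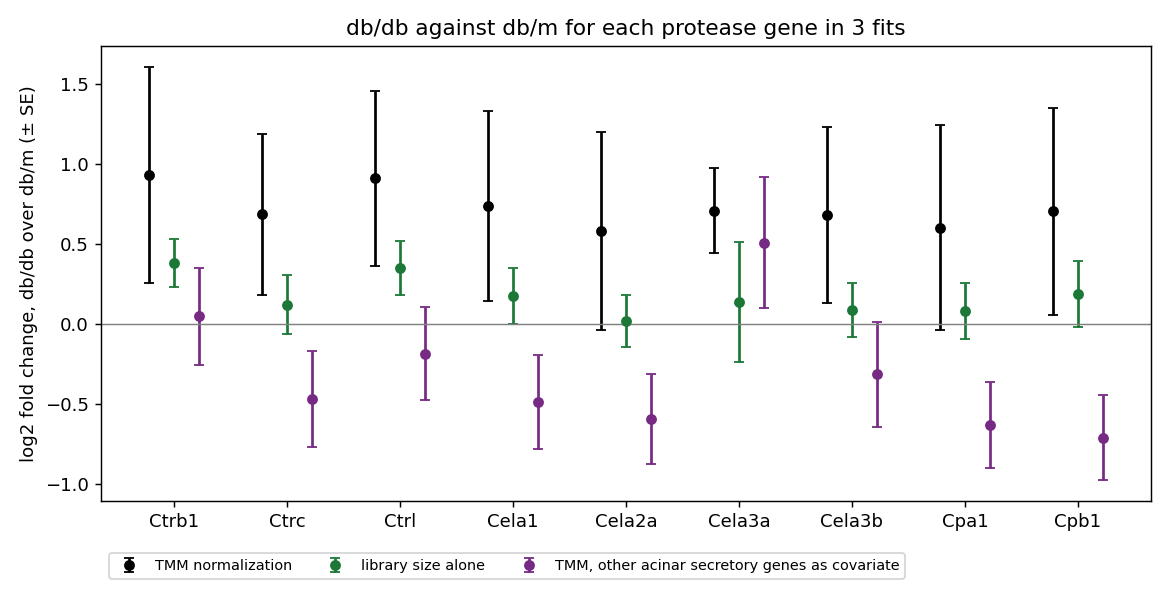
Points give the log2 fold change of db/db over db/m mice (y axis) of each of the 9 genes (x axis) with bars of 1 SE, in black with TMM normalization, in green with library size alone and in purple with the other acinar secretory genes as a covariate. Black points lie between 0.58 and 0.93, green points between 0.02 and 0.38, and purple points are below 0 for all genes but Ctrb1 (0.05) and Cela3a (0.51). The covariate includes the trypsinogen gene Gm10334, which was itself higher in db/db mice.

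Ratios between counts of the same library need no normalization. The log2 ratio of the 9 proteases to the other 33 acinar secretory genes was 0.21, 0.34 and 0.20 in db/db and 0.43, 0.27 and 0.16 in db/m mice. The values of the groups were mixed, with means of 0.25 ± 0.08 and 0.29 ± 0.14 (SD, n = 3 each) and a difference of -0.04 (exact permutation p = 0.7, adjusted over 22 ratios 0.811). The difference was 0.04 without db/m replicate 1, and -0.61 (exact permutation p = 0.1) when each gene was given the same weight as a log2(CPM + 1) value, with trypsinogen genes among the 33. Put as a part of the counts of all 42 acinar secretory genes, the proteases made up 53.5% to 55.8% in db/db and 52.8% to 57.5% in db/m mice.

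Within the group, summed chymotrypsin counts, most of them from Ctrb1, stood higher against summed elastase counts in db/db mice. The log2 ratio of these sums was 0.44, 0.85 and 0.38 in db/db and 0.33, 0.31 and 0.20 in db/m mice. All db/db libraries were above all db/m libraries, db/db replicate 2 by the most, and the means differed by 0.28 (0.56 ± 0.25 against 0.28 ± 0.07, SD, n = 3 each, exact permutation p = 0.1, adjusted 0.275). Without db/db replicate 2 the difference was 0.13, and the groups still did not overlap. Against the other acinar secretory genes, both classes overlapped between groups. The difference in log2 ratio was 0.11 for chymotrypsins (exact permutation p = 0.5) and -0.17 for elastases (exact permutation p = 0.2). Among the chymotrypsins it was 0.12 for Ctrb1, 0.10 for Ctrl and -0.13 for Ctrc, each with overlapping groups. The ratio of carboxypeptidases to elastases overlapped between groups, at -0.07, 0.09 and -0.04 in db/db and -0.33, 0.03 and 0.06 in db/m mice.

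**Figure D4:**
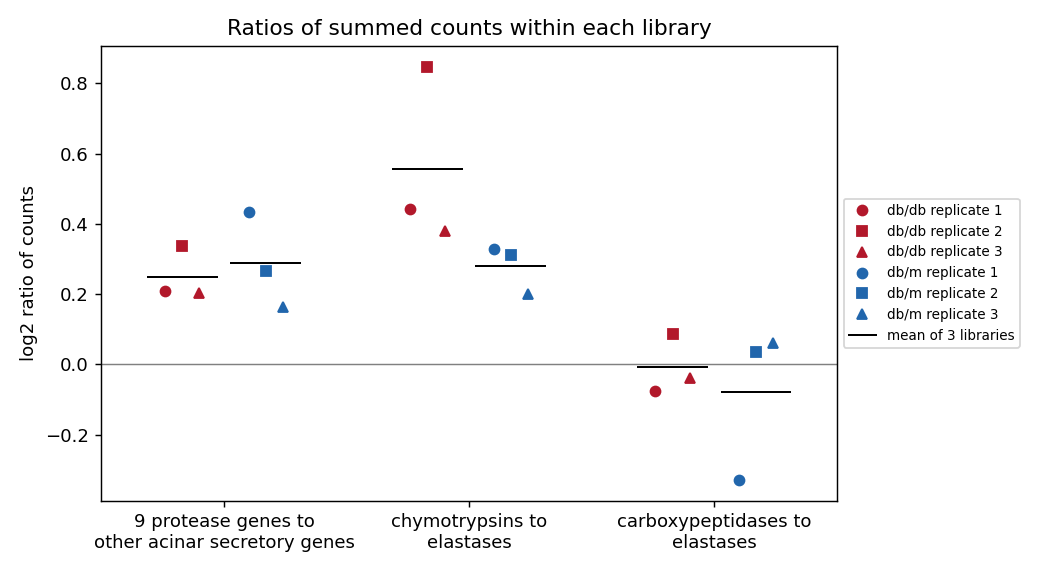
Points give the log2 ratio of summed counts (y axis) within each library for 3 pairs of gene groups (x axis), red for db/db and blue for db/m mice, with a black line at the mean of 3. For chymotrypsins to elastases the db/db libraries (0.38 to 0.85) lie above the db/m libraries (0.20 to 0.33), and for the other ratios the groups are mixed.

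Of the 22 ratios, 8 had groups that did not overlap, each with the smallest exact permutation p of 0.1 and an adjusted value of 0.275. That p is also the share of library splits that would leave a ratio without overlap. Many ratios share genes or a denominator, so the 8 are not separate results. Ctrb1 to Cela2a was higher in db/db mice, with log2 ratios of 1.27, 1.71 and 1.24 against 1.15, 1.11 and 0.90 in db/m mice, a difference of 0.35 that was 0.20 without db/db replicate 2. Lower in db/db mice were 5 ratios. Those to the other acinar secretory genes were of Cela2a (difference of -0.23), of Cpa1 (-0.15) and of the summed carboxypeptidases (-0.10). The others were Ctrc to Ctrb1 (-0.25) and Cela2a to Cela1 (-0.15). Cpa1 is part of the carboxypeptidase sum. The ratio of Cpb1 alone to the other acinar secretory genes overlapped between groups (-0.04, exact permutation p = 0.6). The difference of Ctrc to Ctrb1 was -0.14 without db/db replicate 2, and that of Cela2a to the other acinar secretory genes was -0.15 without db/m replicate 1.

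The make-up of the protease counts was compared gene by gene. Ctrl made up 6.01%, 5.67% and 6.00% of the counts of the 9 genes in db/db and 5.51%, 5.38% and 5.16% in db/m mice, with no overlap (5.89% ± 0.192 against 5.35% ± 0.175, SD, n = 3 each). Cela2a made up 13.4%, 11.8% and 13.3% in db/db and 14.9%, 14% and 15.2% in db/m mice, again with no overlap but in the other direction (12.9% ± 0.884 against 14.7% ± 0.627, SD, n = 3 each). For each of them the exact permutation p was 0.1 and 0.45 after adjustment over 9 genes. Ctrb1 made up 32.5%, 38.6% and 31.4% in db/db and 33.0%, 30.1% and 28.3% in db/m mice, where the groups overlapped (exact permutation p = 0.3).

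Levels were compared between genes as CPM per kb of exon (by library size alone), as means over the 6 libraries. Ctrb1 was highest at 144503 ± 24658 (SD, n = 6), followed by Cela2a at 58734 ± 4874, Cpa1 at 40997 ± 4730, Cpb1 at 34295 ± 5732 and Cela1 at 33226 ± 4190. Cela3b followed at 31431 ± 2606, Ctrl at 25134 ± 3660, Ctrc at 11084 ± 1030 and Cela3a at 26.4 ± 7.96. Of the 8 neighbouring pairs in this order, 6 differed the same way in all 6 libraries (exact paired permutation p = 0.031, adjusted 0.0417). The neighbours Cpb1 and Cela1 (mean log2 ratio 0.04 ± 0.16, SD, exact p = 0.562) and Cela1 and Cela3b (0.07 ± 0.15, SD, exact p = 0.281) did not differ beyond their spread. The gap between Ctrc and Cela3a, a log2 ratio of 8.76 ± 0.54 (SD, n = 6), was by far the widest of the order.

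**Figure D5:**
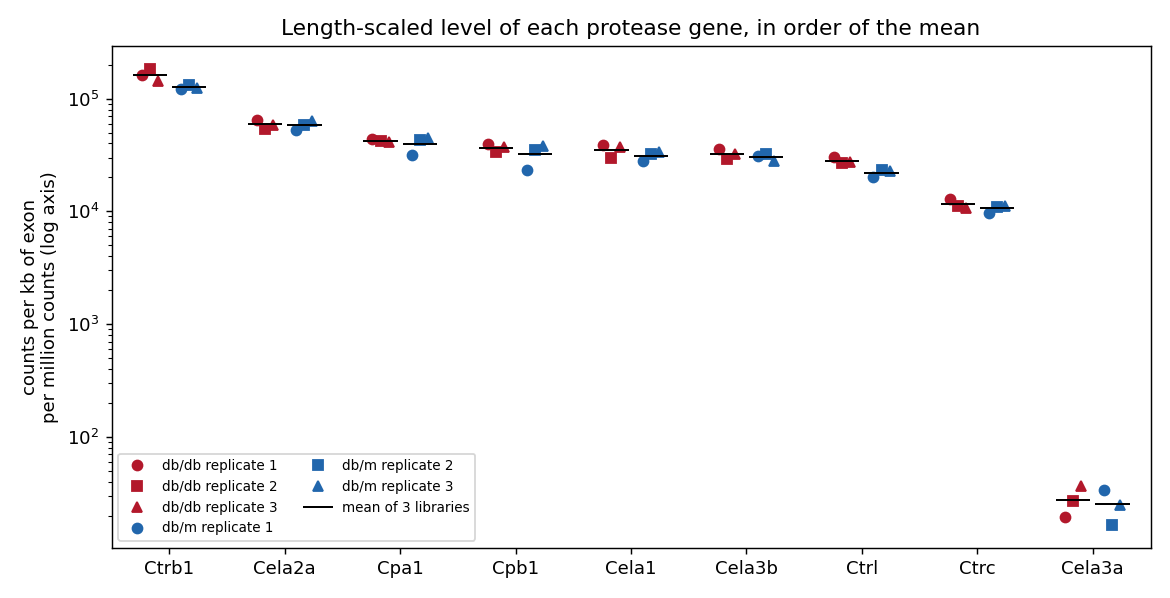
Points give the CPM per kb of exon (log y axis) of each of the 9 genes in each library, ordered by the mean over the 6 libraries, red for db/db and blue for db/m mice, with a black line at the mean of 3. Ctrb1 leads at 121537 to 183997, Cpb1, Cela1 and Cela3b interleave, and Cela3a lies at 16.5 to 37.0.

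The other genes of the acinar cell give the setting of these values. Among 13 other pancreatic proteases, 5 passed the edgeR test as higher in db/db mice and none as lower (0.133% of all genes passed as higher), with a median log2 fold change of 1.69. The highest was Gm10334, a trypsinogen gene, with 10736, 9088 and 8522 counts in db/db and 69, 59 and 83 in db/m mice (log2 fold change 7.57 ± 0.43, SE, edgeR adjusted p = 2.8e-04). Trypsinogen genes are close copies of each other, so their counts are uncertain. The lowest of that list was the trypsinogen gene Try4, at 0.30 ± 0.60 (SE).

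In the other 5 acinar lists edgeR called 0 genes, with 2 at an unadjusted p under 0.05 (Sycn and Xbp1), and DESeq2 called 2 (Sycn and, outside the naming rule, the lipase-related gene Pnliprp1). Of 6 lipase and esterase genes, all had a log2 fold change above 0, from 0.27 for the phospholipase gene Pla2g1b to 1.29 for the colipase gene Clps, with a median of 0.79. Of 8 amylase and ribonuclease genes, 5 were above 0, from -0.69 for Amy2a4 to 1.13 for the ribonuclease gene Rnase1. All 6 zymogen granule and inhibitor genes were above 0, from 0.21 for Gp2 to 1.33 for the granule protein gene Sycn. All 6 acinar transcription factor genes were above 0 as well, from 0.36 for Bhlha15 to 0.76 for Xbp1, with a median of 0.58. Of 9 acinar genes that do not encode secreted enzymes, 8 were above 0, from -1.16 for Rap1gap to 0.84 for Erp27. The summed share of those 9 was 0.323% to 0.366% in db/db and 0.295% to 0.388% in db/m mice, and it overlapped (exact permutation p = 0.8).

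Markers of other cell types were given the same look. For α, δ and PP cells, 0 of 5 tested markers passed edgeR (0 at an unadjusted p under 0.05), and their median log2 fold change was -0.73. Duct markers ran from -1.34 for Krt7 to 1.29 for Krt19, with 0 of 6 passing and 3 at an unadjusted p under 0.05. Stromal, endothelial and leukocyte markers had medians of 1.29, -0.16 and -0.55, with 0 of 5, 0 of 4 and 0 of 7 passing (0, 1 and 2 at an unadjusted p under 0.05). DESeq2 also called 0 markers in each of these 5 lists.

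The genes whose profile over the 6 libraries was nearest to that of the 9 proteases together included Rps7, Rpl23, Csnk2b and Pcbp2. The measure was the root mean square difference of centred log2(CPM + 1) values, and it was 0.0632 for the ribosomal protein gene Rps7 and 0.0899 for Pcbp2. The 8 abundant proteases lay between 0.0679 (Ctrc) and 0.147 (Cpb1) from their own sum, and Cela3a at 0.478. Of 11549 candidate genes, 39 lay within the range of the 8 abundant proteases, and 2922 lay as near as Cela3a or nearer. These CPM values were TMM-normalized, so the factors that set db/db replicate 1 and db/m replicate 1 apart enter every profile. The part of those factors in the likeness was not tested.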

How the data were processed

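Islet RNA of 3 db/db and 3 db/m mice was analysed from the deposited counts, which are whole reads per gene without normalization. The authors mapped to mm10, with TopHat according to the study's methods and HISAT2 2.0.4 according to the submitters' processing notes. The counting program, the annotation and the use of strand are not given in the sources used here. The group comparison used edgeR 4.0.16 under R 4.3.3 (default low-count filter, TMM, quasi-likelihood F-test, Benjamini-Hochberg adjustment over 12760 genes, threshold 0.05). The SE is the size of the log2 fold change over the square root of F. DESeq2 1.42.0 was the other tool. For shares and ratios, exact permutation tests over libraries (two-sided) were run in Python 3.11.15. Positions and sequences came from RefSeq GRCm38.p6.

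The members and lists were chosen with earlier results of these data known. Named genes were all 9 members, the highest and the lowest gene of each list by log2 fold change, and the 5 genes nearest to the members in profile (pseudocount 1, at least 1 CPM on average). Motifs and the single ratios were chosen after the data were seen. The results of 1 gene that these rules name are not reported here. Each library is labelled as a mouse of its own. Replicates of a group differed beyond counting noise, with a chi-square over its degrees of freedom of 26.5 to 147. Intervals cover counting error only. Replicate numbers were taken from the labels, and same-numbered libraries had correlations from -0.53 to -0.20 over 3 pairs, so they were not treated as pairs. On simulated data for this comparison (12578 genes), edgeR recovered 193 of 200 genes changed by a log2 fold change of 3 in size, with 11 false calls. The simulation gave all genes the same dispersion, and its changes were larger than those of the 9 genes (0.58 to 0.93). Whether edgeR could find changes of that smaller size was not tested.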

Additional observations from a re-analysis of the deposited data

How the results depend on the processing

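With 3 mice a group, exact tests between groups cannot go below 0.1, and leaving out db/db replicate 1 or db/m replicate 1, which had the extreme TMM factors, lowered the fold changes of the 8 abundant genes. edgeR or DESeq2 called 0 of the 9 genes under all 15 alternatives, and the lowest adjusted p was 0.0639 (Ctrb1, DESeq2). Of 126 fold changes over 14 alternatives, 119 kept their direction, and with 1 library left out they ran from 0.24 (Cela2a) to 1.1 (Ctrb1). The 7 others all came from the acinar covariate, with -0.47 for Ctrc, -0.19 for Ctrl, -0.49 for Cela1, -0.60 for Cela2a, -0.32 for Cela3b, -0.63 for Cpa1 and -0.71 for Cpb1. The cause was not tested. Over all genes, 79 calls became 707 with DESeq2, 888 with every gene that had a count, 52 with upper-quartile factors, 21 with library size alone, 27 with the covariate and 10 to 333 with 1 library left out. With the replicate number as a block, 16 genes were called in all and 0 of the 9, with log2 fold changes from 0.57 to 0.94. The numbers did not pair the samples.

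Leaving out each library in turn moved the difference in summed share between 3.73 (without db/m replicate 1) and 6.81 percentage points. The log2 ratio of the proteases to the other acinar secretory genes then ran from -0.10 to 0.0353, the latter without db/m replicate 1. As a mean of log2(CPM + 1) over genes, which gives each gene the same weight, that difference was -0.61 (exact permutation p = 0.1). As a part of the protease counts, the difference of Cela1 ran from -0.66 to 0.46 (above 0 without db/db replicate 2), and that of Cela3a from -0.00173 to 0.00119 (0.000668 without db/db replicate 1, 0.00119 without db/m replicate 1). For Cpb1 it ran from -1.18 to 0.733, with 0.472 without db/db replicate 2, 0.266 without db/m replicate 2 and 0.733 without db/m replicate 3. In the order of levels, 6 pairs of neighbours passed with 6 libraries and 0 with any 5, where the smallest p is 0.0625, and the order was the same each time. The alternative that drops Cela3a was chosen after seeing the data and left 5.76 percentage points, and leaving out libraries from single ratios was added in the same way.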

Other observations

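Carboxypeptidases that act outside the acinar cell were listed apart. Of 13 genes, 5 had enough counts for the test, and 0 passed an edgeR adjusted p of 0.05, with 1 at an unadjusted p under 0.05 and 0 called by DESeq2. That gene was Cpe, which encodes the carboxypeptidase that trims prohormones in endocrine granules. Its counts were 558, 2018 and 1140 in db/db and 6773, 2804 and 1923 in db/m mice, and the groups overlapped. Cpe had a log2 fold change of -1.09 ± 0.42 (SE, edgeR adjusted p = 0.273), against values above 0 for the pancreatic Cpa1 and Cpb1. Cpn1, the gene of a circulating carboxypeptidase, was at the other end of the list at 0.51 ± 0.32 (SE).

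Serine proteases of leukocytes and mast cells, which include neutrophil elastase (Elane) and mast cell chymase (Cma1), had too few counts for the test in all 10 cases. Of 10 inhibitors of chymotrypsin and elastase, 3 had enough counts, and 0 passed an edgeR adjusted p of 0.05 (1 at an unadjusted p under 0.05, 0 called by DESeq2). Serpinb1a, which encodes an intracellular elastase inhibitor, had 1189, 885 and 1484 counts in db/db and 653, 803 and 932 in db/m mice. Serpinb1a had a log2 fold change of 1.03 ± 0.35 (SE, edgeR adjusted p = 0.219). Serpinb6a was the lowest of the 3 at 0.10 ± 0.28 (SE).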
